A study of Homo sapiens with 4 samples.

Results

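The immediate early transcription factors examined here were the AP-1 subunits FOS, FOSB, FOSL2, JUN, JUNB and JUND, the related factor ATF3, the zinc-finger factors EGR1 and EGR3, and IER2. They were taken by symbol from the deposited tables, and all 10 of the 10 symbols were found among 23605. RNA had been sequenced from LCC9 cells, a breast cancer line that descends from MCF-7, resists tamoxifen and, by its labels, carries wild-type estrogen receptor alpha. One group received vehicle (DMSO, 2 libraries) and the other the compound A7 (2 libraries), labelled as mimicking BRCA1, a tumour suppressor. Every culture, vehicle included, grew without phenol red in 5% charcoal-stripped serum, a medium with little estrogen, and was harvested after 24 h of treatment. The dose of A7 is not given in the sources used here, and the sample titles and the series title carry different catalogue numbers for it, so only the code name is used. LCC9 is 1 cell line, and nothing in the labels states that libraries of a group came from separate cultures. P-values therefore measure the spread between these libraries, which may be technical.

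Immediate early genes are transcribed within minutes of a growth or stress signal, without new protein synthesis, and most return to a low level soon afterwards. MAP kinases reach their promoters through serum response factor with its ETS-family partners and through CREB and ATF proteins. AP-1 is a dimer of leucine-zipper proteins. JUN proteins pair with each other or with FOS proteins, whereas FOS proteins need a JUN partner to bind DNA. JUND differs from its relatives in being made steadily in resting cells. EGR1 and EGR3 bind GC-rich sites and are held in check by the corepressors NAB1 and NAB2. EGR3 is also known as a gene that estrogen induces in breast cancer cells. A harvest at 24 h shows the settled level of such genes and not the first burst.

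Promoter sequence was at hand for 9 of the 10 genes in RefSeq (GRCh38.p14), and not for EGR3. Shown are the 250 bases before the annotated start of EGR1 and JUND, the genes with the highest levels below, and of JUN, which autoregulates through its own promoter. Letters are in the direction of the gene, 5' to 3', and capitals mark matches to the motifs searched.
EGR1 (chr5:138465229-138465478, plus strand): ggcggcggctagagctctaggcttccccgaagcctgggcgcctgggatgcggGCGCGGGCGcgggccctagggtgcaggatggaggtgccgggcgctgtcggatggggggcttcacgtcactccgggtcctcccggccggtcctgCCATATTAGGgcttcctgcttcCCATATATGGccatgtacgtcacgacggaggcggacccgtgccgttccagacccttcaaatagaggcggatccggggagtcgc
JUND (chr19:18281623-18281872, minus strand): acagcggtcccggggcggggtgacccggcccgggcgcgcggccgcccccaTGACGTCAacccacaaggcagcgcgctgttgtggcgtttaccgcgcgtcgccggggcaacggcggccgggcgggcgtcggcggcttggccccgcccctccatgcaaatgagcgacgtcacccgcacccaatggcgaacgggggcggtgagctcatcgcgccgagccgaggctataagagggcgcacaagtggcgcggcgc
JUN (chr1:58784048-58784297, minus strand): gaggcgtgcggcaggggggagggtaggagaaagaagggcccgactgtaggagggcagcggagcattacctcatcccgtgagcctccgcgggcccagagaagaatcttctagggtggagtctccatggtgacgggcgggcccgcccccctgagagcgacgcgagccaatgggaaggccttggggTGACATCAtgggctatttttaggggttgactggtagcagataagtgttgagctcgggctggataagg
In EGR1 the capitals mark an EGR site (GCGNGGGCG, where N is any base) and a pair of CArG boxes, the element bound by serum response factor, which began 105 and 83 bases before the start. In JUND they mark a cyclic AMP response element (CRE, TGACGTCA) that began 200 bases before the start. In JUN they mark TGACATCA, 67 bases before the start, a variant that JUN and ATF proteins bind and that was added to the search after the sequence had been read. ATF3 held the same variant 123 bases before the first of its 2 annotated starts. An AP-1 site (TGANTCA) occurred only in FOSL2, just after the start, and an ETS core (CCGGAAG) only in IER2, among the 9 genes. Both strands of windows from 250 bases before to 50 after the start were searched, and no matches overlapped each other in these genes. Of 35116 such windows in the table, 1.29% held a CArG box, 1.85% the CRE, 2.61% TGACATCA, 7.71% an AP-1 site, 9.43% an EGR site and 10.3% an ETS core. A match describes the letters and not binding.

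Values below are scaled FPKM, that is, fragments per kilobase of transcript and per depth of mapped fragments as deposited, divided by a factor per library of 0.99 to 1.02. The vehicle tables summed to 1324082 and 1473540 FPKM, the A7 tables to 1189056 and 1192830. The size of the steps between low values put the depth at roughly 2200000 and 2100000 fragments for vehicle against 4000000 and 3100000 for A7, so that the A7 libraries were the deeper ones. The luminal markers KRT8, KRT18, KRT19, EPCAM, CDH1, ESR1, GATA3 and FOXA1 were all above the minimum of 1 FPKM. Their summed level was 914 to 1150 with vehicle and 772 to 1020 with A7. The basal keratins KRT5 and KRT14 were listed at 0 in every library, and TP63 at 0.547 to 1.46. Also at 0 throughout were 2 of 5 fibroblast (PDGFRB, THY1) and 1 of 3 endothelial (CDH5) markers, and the leukocyte genes PTPRC and CD3E. Summed fibroblast markers reached 0.416 and 0.421 with vehicle and 1.55 and 0.613 with A7, and summed endothelial markers stayed at 0.0292 to 0.0961. CD68, a macrophage marker, was listed at 4.11 and 4.15 under vehicle against 3.47 and 4.15 under A7.

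The genes spanned a wide range of levels, and their order was nearly the same in both groups. JUND was the most abundant, at a mean of 51.4 ± 7.01 scaled FPKM with vehicle and 48.2 ± 0.223 with A7 (SD, n = 2 each). EGR1 followed, then IER2, and no ranges overlapped between these neighbours in either group. With vehicle EGR3 came next, clear of JUNB below it, whereas with A7 it lay below JUNB (1.23) and its range overlapped that of JUN. JUNB, JUN and FOSL2 overlapped as neighbours with vehicle, and so did FOSB, ATF3 and FOS at the bottom. FOS is the textbook immediate early gene and had the lowest level of the 10 with vehicle. Only JUND, EGR1, IER2 and EGR3 reached a mean of 1 FPKM over the 4 libraries, the minimum for testing, and 87% of the 8952 tested genes lay below JUND against 14.5% below EGR3. FPKM are per transcript length, so levels of different genes can be set beside each other as far as length goes. The lengths that the authors used are not given, and other differences between transcripts, such as GC content, are not removed.

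**Figure D1:**
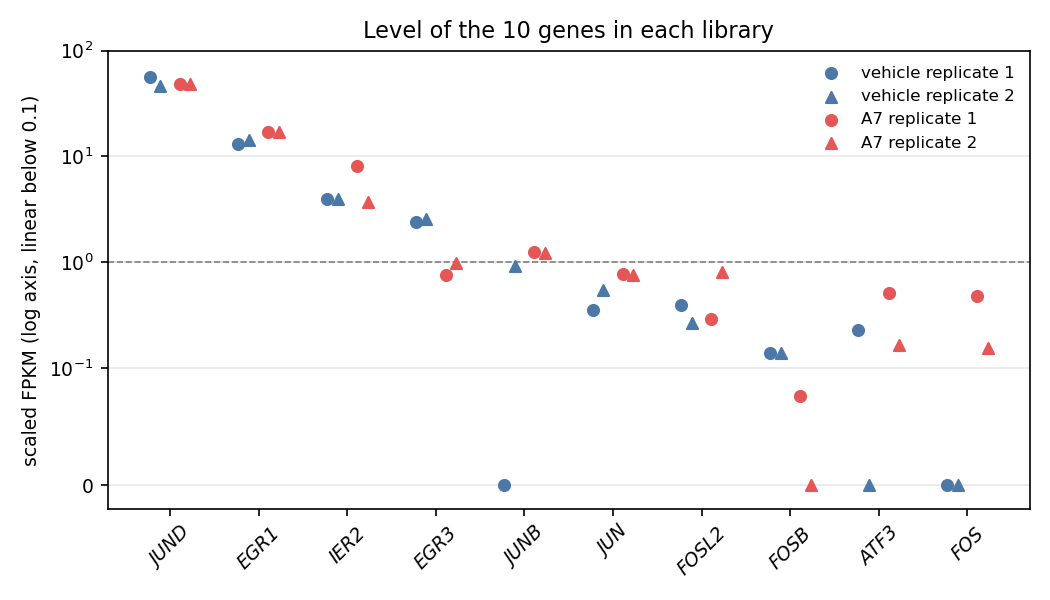
Scaled FPKM of each gene (log axis, linear below 0.1) in the 2 vehicle libraries (blue) and the 2 A7 libraries (red), ordered by the vehicle mean, with the testing minimum as a dashed line. JUND and EGR1 lie above all other genes in every library, EGR3 lies below the line in both A7 libraries only, and FOS is at 0 in both vehicle libraries.

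None of the 4 tested genes passed limma's test at an adjusted p under 0.05, and 1 of them, EGR3, had an unadjusted p under 0.05. Over all 8952 tested genes the same rule called 0.0112% higher and 0.0112% lower with A7, 1 gene each. Unadjusted p-values under 0.05 with a lower level made up 3.55% of tested genes and those with a higher level 2.21%. With no minimum on the level all 10 genes entered the fit, and again 0 passed and 1, EGR3, had an unadjusted p under 0.05. The median difference of the 4 tested genes was 0.1 on the log2(scaled FPKM + 1) scale, beside -0.0019 for all tested genes. The groups did not overlap in 6 of the 10, with 4 higher and 2 lower in both A7 libraries. Of all 16276 symbols above 0 in any library, 17.8% were higher and 14.3% lower in this sense. Among the 6 genes, FOS, FOSB, JUN and JUNB rested on about 11 fragments or fewer in every library. Of the 4 tested genes 1 was higher and 1 lower without overlap, beside 18.3% and 18.6% of all tested genes.

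EGR3, a target and relative of EGR1 that acts in growth and differentiation, showed the largest difference on this scale among the 4 tested genes. It was listed at 2.39 and 2.55 scaled FPKM under vehicle against 0.75 and 0.981 under A7. Both A7 libraries lay below both vehicle libraries, and the gap was wider than the spread within either group. The means were 2.47 ± 0.11 and 0.866 ± 0.163 (SD, n = 2 each), so the A7 mean was 2.85-fold lower. The log2 difference was -0.9 (SE 0.21, 95% interval -1.42 to -0.38, limma adjusted p = 0.734), and EGR3 ranked 69 of 8952 by its p before adjustment. About 46 fragments in the vehicle group and 26 in the A7 group stood behind these values, although the A7 libraries were deeper. Per depth the ratio of A7 to vehicle was 0.34, with an exact 95% counting interval of 0.202 to 0.561, which covers counting error only. Leaving out any 1 library gave log2 differences of -0.98 to -0.81 with limma adjusted p-values of 0.636 to 0.977. In a bulk sample, fewer cells with the transcript and less of it per cell cannot be told apart. EGR3 overlaps an annotated gene on the opposite strand (AC055854.1 in GENCODE 29), and the library protocol names no step that marks strand, so reads of that pair cannot be told apart.

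EGR1, which many growth factor and stress signals induce, differed from EGR3 in the direction of its means. Its levels were 13.3 and 14.5 scaled FPKM with vehicle and 16.9 and 17.1 with A7. The groups did not overlap, but the step was small. The means were 13.9 ± 0.844 and 17 ± 0.112 (SD, n = 2 each), a 1.23-fold higher mean with A7. The log2 difference was 0.28 (SE 0.15, 95% interval -0.08 to 0.64, limma adjusted p = 0.806), so EGR1 did not pass. EGR1 rested on far more fragments than EGR3, about 187 and 379 in the groups, for a ratio per depth of 1.22 (counting interval 1.02 to 1.46). The proportion between the pair does not depend on the factor that divides each library. EGR1 stood at 5.54 and 5.67 times the FPKM of EGR3 with vehicle and at 22.5 and 17.4 times with A7. EGR3 thus made up 15.3% and 15% of the summed FPKM of the pair under vehicle against 4.25% and 5.43% under A7. No p is given for these proportions, since an exact permutation test of 2 against 2 libraries cannot reach 0.05.

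**Figure D2:**
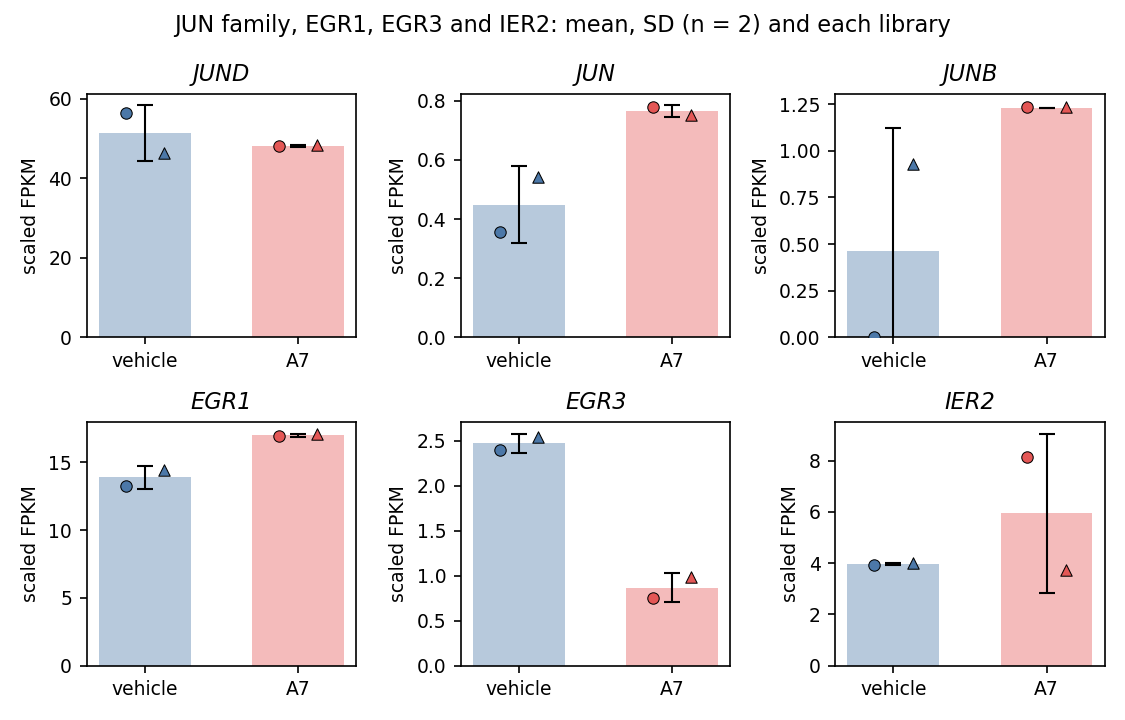
Scaled FPKM of JUND, JUN, JUNB, EGR1, EGR3 and IER2, each panel on its own axis from 0, with bars for the group mean, whiskers for the SD (n = 2, drawn down to 0 at most) and points for the libraries (circle replicate 1, triangle replicate 2). EGR3 is lower in both A7 libraries (0.75 and 0.981) than in both vehicle libraries (2.39 and 2.55), whereas for IER2 a single A7 library is high (8.14).

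JUND dominated the JUN family, and its levels overlapped between the groups. JUND, a JUN protein with weak activity by itself and often linked to slower growth, was listed at 56.4 and 46.4 scaled FPKM under vehicle against 48 and 48.4 under A7. Both A7 libraries lay between the vehicle libraries. The log2 difference was -0.08 (SE 0.15, 95% interval -0.45 to 0.29, limma adjusted p = 0.932), and became 0.14 with TPM, where the median gene stood at 0.17 and JUND at -0.04 relative to it. It turned to 0.02 after quantile normalization and to 0.05 without vehicle replicate 1. With about 411 fragments under vehicle and 638 under A7, the ratio per depth was 0.933 (counting interval 0.823 to 1.06). JUND supplied 99.4% and 96.9% of the summed FPKM of JUN, JUNB and JUND with vehicle and 96% and 96.1% with A7.

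JUN and JUNB were near or below 1 FPKM, with higher values in both A7 libraries. JUN, the partner with the strongest transactivation in the family, was listed at 0.356 and 0.542 scaled FPKM under vehicle against 0.78 and 0.752 under A7. The groups did not overlap and the A7 mean was 1.7-fold higher. These values stood for about 3 and 4 fragments under vehicle against 11 and 8 under A7, and the ratio per depth, 1.63, had a counting interval of 0.657 to 4.59 that includes 1. JUNB, which often opposes JUN, was listed at 0 and 0.929 under vehicle against 1.24 and 1.23 under A7. The vehicle libraries differed from each other more than vehicle replicate 2 differed from A7. About 4 fragments with vehicle and 16 with A7 gave a ratio per depth of 2.4 (counting interval 0.776 to 9.88). With no minimum on the level, limma gave an adjusted p of 0.796 for each. A difference in JUN or JUNB was thus not shown, on few fragments and 2 libraries per group.

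FOS family transcripts were scarce in every library. FOS was listed at 0 in each vehicle library, while A7 gave 0.481 and 0.154 scaled FPKM, which stood for about 4 and 1 fragments. A single fragment of FOS would have been worth 0.215 and 0.22 deposited FPKM in the vehicle libraries against 0.116 and 0.15 in the A7 libraries, so the shallower vehicle libraries could register only coarser steps. FOSB, whose product is close to FOS, was listed at 0.139 and 0.14 under vehicle against 0.0762 and 0 under A7. Each of its values above 0 equalled about 1 fragment. The groups did not overlap, and the lower values stood in the A7 libraries, where a fragment is worth less. FOSL2, which encodes FRA2, was listed at 0.397 and 0.267 under vehicle against 0.288 and 0.816 under A7. The groups overlapped, with A7 replicate 2 alone standing high at about 17 fragments, against 8 in A7 replicate 1. The ratio per depth of FOSL2 was 1.5 (counting interval 0.697 to 3.51), and its log2 difference turned to -0.05 without A7 replicate 2. Summed over FOS, FOSB and FOSL2, the level was 0.536 and 0.407 with vehicle and 0.845 and 0.97 with A7. This sum equalled 0.944% and 0.85% of the summed JUN family with vehicle and 1.69% and 1.93% with A7. No member of the FOS family reached the testing minimum, and with none applied limma's adjusted p was 0.796 for FOS and FOSB and 0.811 for FOSL2.

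ATF3 and IER2 were both higher in A7 replicate 1 than elsewhere. ATF3, a stress-induced factor that pairs with JUN proteins, was listed at 0.231 and 0 scaled FPKM under vehicle against 0.508 and 0.166 under A7. The groups overlapped, on about 1 fragment with vehicle and 5 with A7. IER2, a short nuclear protein induced along with FOS, was listed at 3.93 and 4 under vehicle against 8.14 and 3.74 under A7. A7 replicate 1 stood at more than the level of any other library, and A7 replicate 2 was the lowest of the 4. The means were 3.96 ± 0.0446 and 5.94 ± 3.11 (SD, n = 2 each), and the log2 difference was 0.41 (SE 0.32, 95% interval -0.39 to 1.2, limma adjusted p = 0.843). The ratio per depth was 1.58 (counting interval 1.06 to 2.4), an interval that leaves out the spread between libraries. Without A7 replicate 1 the log2 difference was -0.07, and without A7 replicate 2 it was 0.88, so A7 replicate 1 decided the direction. IER2 also overlaps an annotated gene on the opposite strand (AC011446.2), with the same limit as for EGR3.

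**Figure D3:**
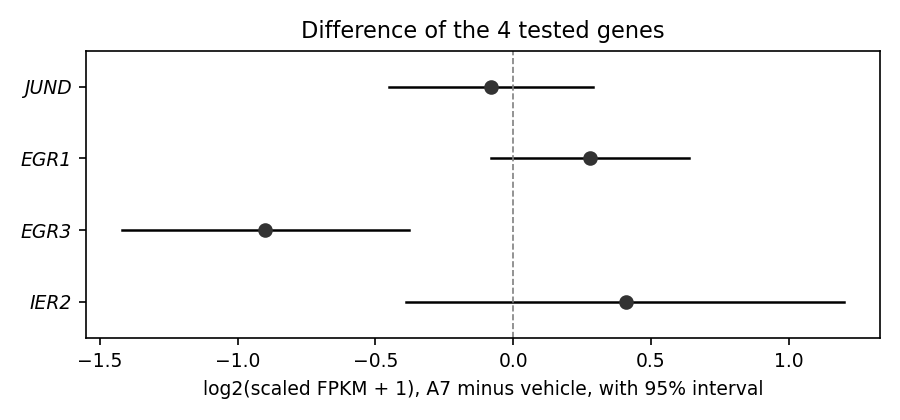
Difference between A7 and vehicle for the 4 tested genes on the log2(scaled FPKM + 1) scale, with limma's 95% interval as a line. Only the interval of EGR3 (-1.42 to -0.38) lies on 1 side of 0, before adjustment over all genes.

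**Figure D4:**
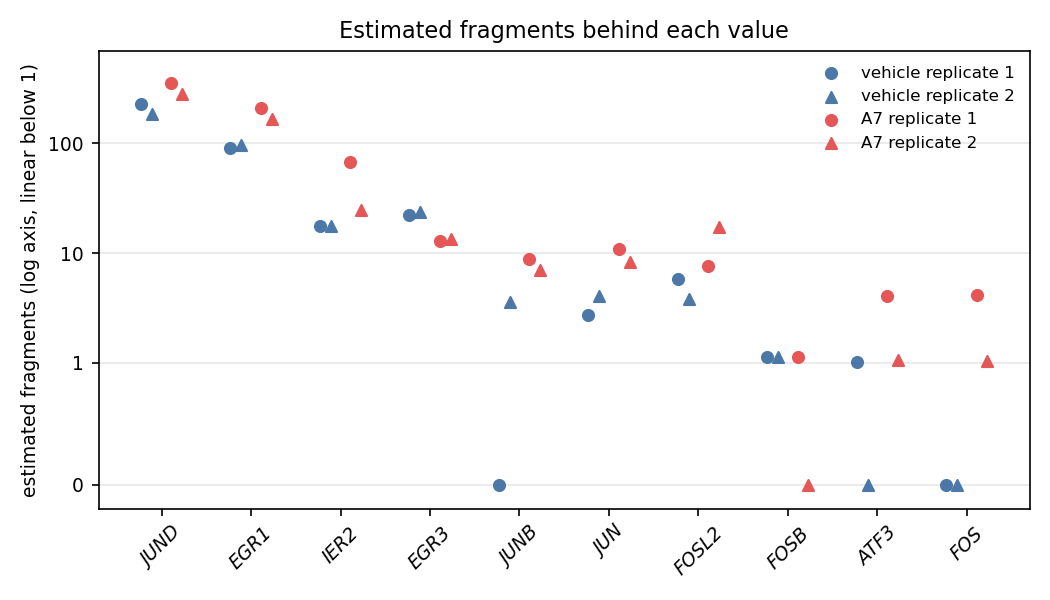
Estimated number of fragments behind each value (log axis, linear below 1), by gene and library, ordered as in the plot of levels. JUND and EGR1 rest on about 90 to 354 fragments per library, whereas FOS, FOSB and ATF3 rest on 0 to 4.

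The transcripts of the 10 genes shared a GC content above the median of the tested genes, a trait that the choice by symbol did not use. That median was 46.8% GC, over the 91.8% of tested genes with a GENCODE 29 transcript. JUND, at 69.7%, JUNB, at 64.9%, and IER2, at 62.9%, exceeded the 95th percentile of 61.8%. The others lay below it, from 50.8% (ATF3) to 57.7% (FOSB). Other immediate early genes were not set beside them. JUN, JUNB and JUND have transcripts of 1 exon, a structure found in 3.99% of tested genes. No other gene had a near-identical copy of any of the 10 transcripts (95% identity or more across 50% or more of the length). The part of GC content in the levels was not tested.

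The signalling and target genes around these factors were described with 11 lists that held 178 genes. Of these, 103 reached the testing minimum and 0 passed limma's test at an adjusted p under 0.05, while 4 higher and 4 lower genes had an unadjusted p under 0.05, beside 2.21% and 3.55% of all tested genes. Among 25 other leucine-zipper factors, of the AP-1, ATF, MAF, CREB, C/EBP and NFE2L families, 15 were tested. The C/EBP and NFE2L genes CEBPB, CEBPD, CEBPG and NFE2L2 averaged higher, and DDIT3 and NFE2L1 lower. Over all 15, means were higher for 8 and lower for 7 (median log2 difference 0.05). This median was -0.06 without vehicle replicate 1, -0.03 without A7 replicate 1 and -0.01 after quantile normalization. BATF, a JUN partner best known from lymphocytes, was listed at 2.2 and 2.98 scaled FPKM under vehicle against 1.98 and 0.974 under A7. CEBPB, a factor of inflammation and mammary differentiation, was listed at 3.04 and 3.07 under vehicle against 3.27 and 5.09 under A7. Neither passed (limma adjusted p = 0.806 and 0.82). Of EGR2, EGR4, NAB1, NAB2 and WT1 none reached the minimum, and their levels summed to 1.39 and 2.23 with vehicle and 2.01 and 1.9 with A7.

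Of 18 tested other immediate early genes 9 averaged higher and 9 lower, with a median of -0.06. The split was 11 to 7 and the median positive without vehicle replicate 1 (0.1) and without A7 replicate 2 (0.19). MCL1, a survival protein of the BCL2 family, was listed at 11.6 and 10.7 scaled FPKM under vehicle against 17.2 and 16.1 under A7. Its log2 difference was 0.54 (SE 0.15, limma adjusted p = 0.806). The matricellular gene CYR61, a target of serum response factor, was listed at 0.847 and 1.29 under vehicle against 1.51 and 3.31 under A7 (adjusted p = 0.806). BTG1, an inhibitor of proliferation, was listed at 1.61 and 1.49 under vehicle against 2.63 and 2.4 under A7 (adjusted p = 0.806). In these 3 genes both A7 libraries lay above both vehicle libraries, as in 6 of the 18 tested, while 2 of the 18 lay below, beside 18.3% and 18.6% of all tested genes. The unadjusted p was under 0.05 for MCL1 and for the stress-response gene IER3, both higher, beside 2.21% of all tested genes. IER3 averaged 13.4 ± 4.7 and 23.4 ± 7.43 scaled FPKM (limma adjusted p = 0.806).

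Upstream, 14 of 16 tested RAS, ERK, JNK and p38 kinase genes averaged higher under A7 and 2 averaged lower (median 0.25, 0 past the threshold). Without overlap 4 of the 16 were higher and 0 lower, beside 18.3% and 18.6% of all tested genes. None had an unadjusted p under 0.05. Without vehicle replicate 2 the split was 10 to 6 and the median 0.08, and without A7 replicate 1 they were 12 to 4 and 0.14. MAPK13, a p38 kinase, was listed at 1.82 and 1.43 scaled FPKM under vehicle against 2.83 and 2.18 under A7, and MAP2K4, which activates JNK, averaged 1.92 ± 0.786 and 2.87 ± 0.255 (limma adjusted p = 0.806 each). Serum response factor and its cofactors had 5 of 5 tested members with a higher mean (median 0.18, and 3 of 5 with a median of 0.06 without vehicle replicate 2). The ETS factor ELK4 averaged 5.62 ± 1.59 and 6.77 ± 0.727, with overlap of the groups. Feedback inhibitors of MAP kinases had a median of 0.08 over 7 tested genes and -0.03 without vehicle replicate 2, and the ligases and partners that turn JUN over had a median of -0.05 over 7. The latter turned to 0.04 without vehicle replicate 2 or A7 replicate 1, to 0.06 without A7 replicate 2 and to 0.05 after quantile normalization.

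Of 9 tested AP-1 targets 3 averaged higher and 6 lower, with a median of -0.09 that ran from -0.15 without vehicle replicate 1 to -0.02 without A7 replicate 2. At an unadjusted limma p under 0.05, 2 of the 9, AREG and MT2A, were lower and 0 higher. The shares of all tested genes were 3.55% and 2.21%. By the same measure GDF15 was higher and THBS1 lower among EGR1 targets, and BAG3 higher and HSPA8 lower among heat shock genes. AREG, an EGF receptor ligand that estrogen also induces, was listed at 19.5 and 16 scaled FPKM under vehicle against 10.5 and 9.8 under A7. Its log2 difference was -0.75 (SE 0.17, limma adjusted p = 0.667). MT2A, a metal-binding metallothionein, was listed at 693 and 775 under vehicle against 582 and 522 under A7 (limma adjusted p = 0.806). VEGFA, an angiogenic factor, averaged 2.61 ± 0.0802 and 3.77 ± 0.907 (adjusted p = 0.806). Of 9 tested EGR1 targets 5 averaged higher and 4 lower, with a median of 0.02 that was 0.17 without A7 replicate 1, 0.11 without vehicle replicate 1 and -0.1 without A7 replicate 2. GDF15, a stress-induced cytokine, was listed at 2.25 and 0.761 under vehicle against 4.85 and 4.01 under A7 (limma adjusted p = 0.806), whereas the matrix gene THBS1 was listed at 41.1 and 41.9 under vehicle against 32.8 and 28.1 under A7 (limma adjusted p = 0.806). Both lists held members without overlap in either direction, 2 higher and 3 lower of 9 for AP-1 and 4 higher and 3 lower of 9 for EGR1, beside the 18.3% and 18.6% of all tested genes.

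Stress genes were mixed. The list of the ATF4 and ATF3 response also held ATF6B, XBP1 and HSPA5, which belong to endoplasmic reticulum stress more widely. Of its 8 tested genes 2, ATF6B among them, averaged higher and 6 lower (median -0.09, or -0.02 without A7 replicate 2). Without overlap 1 was higher and 2 lower, beside 18.3% and 18.6% of all tested genes. ATF6B was listed at 1.97 and 2.35 scaled FPKM under vehicle against 3.92 and 2.7 under A7. The asparagine synthetase ASNS was listed at 43.7 and 52.6 under vehicle against 37.2 and 41.9 under A7 (limma adjusted p = 0.806 for ATF6B and ASNS). Of 9 tested heat shock genes 3 averaged higher and 6 lower (median -0.14, or -0.03 without vehicle replicate 1, -0.04 without A7 replicate 2 and -0.01 after quantile normalization). The cochaperone BAG3 was listed at 17.9 and 15.7 under vehicle against 25.1 and 21.8 under A7, and the chaperone HSPA8 averaged 1790 ± 259 and 1090 ± 267. Neither passed (limma adjusted p = 0.806 for both). With FPKM rescaled to TPM the median of all tested genes was 0.17, and relative to it the medians were -0.06 for other immediate early genes, -0.01 for JUN turnover, -0.07 for the ATF4 and ATF3 response and -0.09 for heat shock genes, the same direction as before.

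**Figure D5:**
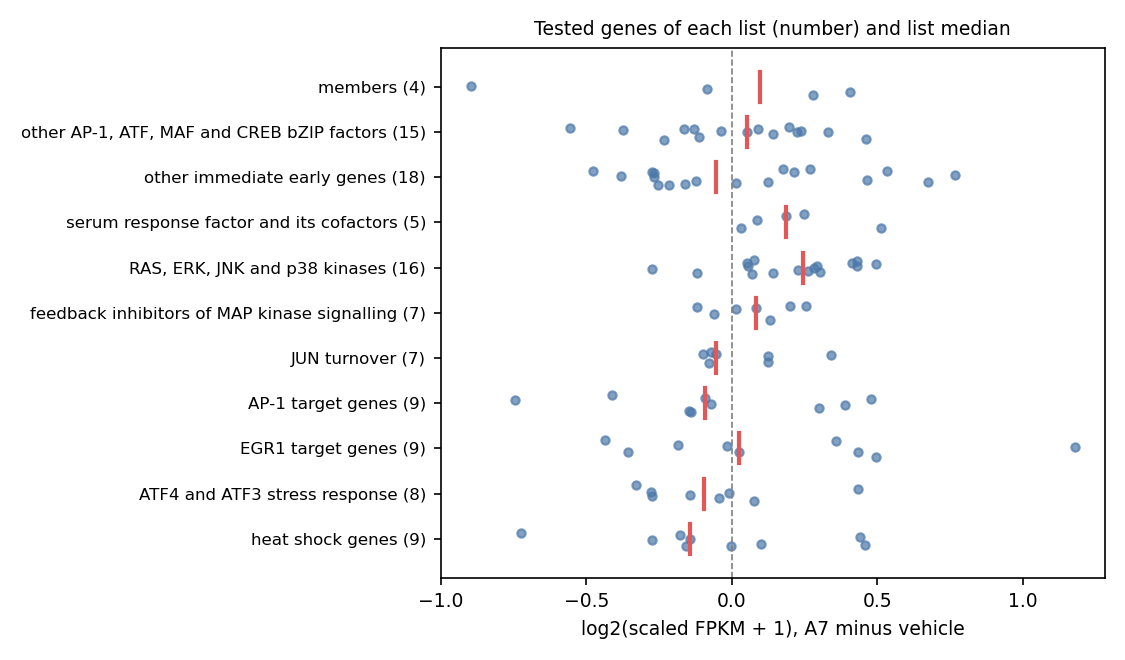
Difference between A7 and vehicle (log2 of scaled FPKM + 1) for each tested gene (points) of the lists, with the number tested in brackets and the list median as a red bar. The row called members holds the 4 tested genes of the 10, and the kinase list has the highest median (0.25).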

How the data were processed

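Per the labels' protocols, SMARTer PCR cDNA of total RNA was sheared and given adapters. The authors deposited 1 table of gene symbols and FPKM per library, per the file headers. The submitters' processing notes name GRCh37, Cufflinks 2.2.1, TopHat and CASAVA 1.8.2 without saying what each did, and the annotation is not given in the sources used here. Of 23619 lines, 14 with a number as symbol (at most 0.00539% of summed FPKM) were left out.

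Libraries were scaled by median ratios, taken against geometric means of the genes. The 8952 genes that averaged at least 1 FPKM were tested two-sided on log2(scaled FPKM + 1) with limma 3.58.1 in R 4.3.3, with a mean-variance trend and Benjamini-Hochberg adjustment over all of them. This scale understates changes of low genes. The fit had 2 residual and 3.89 prior degrees of freedom. An exact permutation test of 2 against 2 cannot go below 0.333. Tested on simulated data (5 simulations of 8952 genes), the limma fit recovered 33.1% of changes of 2-fold, 96.1% at 4-fold and 99.7% at 8-fold. Of the calls, 5.03% were unchanged genes. All changes were simulated among genes with a mean log2(scaled FPKM + 1) above 2. EGR3 lay below that level in every library, and its 2.85-fold lower mean was only -0.9 on this scale. The simulated spread depended on the mean level alone, so genes of like level did not differ in it. Real genes of like level can differ in spread, and the recovery may therefore be too high. These percentages are thus no estimate of what could be missed among the genes examined here.

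FPKM are not counts. Relative depth was read from the ratio of low values of the same gene between libraries. Absolute depth was read from the lowest peak of FPKM times length in genes with 1 transcript (GENCODE 29) of 2000 to 7000 bases. Estimated fragments scale with the transcript length assumed and are approximate. Counting intervals are exact binomial (Clopper-Pearson, scipy 1.17.1), and PCR copies are not independent molecules. Copies were searched with blastn 2.17.0. GENCODE 29 is of another build than GRCh37. Its exon positions gave transcript lengths and overlapping genes, and none of them are printed.

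The 10 genes and all lists were chosen with earlier results of these data known. Of each list up to 4 tested genes with the smallest p could be named, plus ESR1 and BRCA1. Genes of like pattern were not sought, since 4 libraries are too few for a correlation. One marker gene is not reported here. Alternatives changed the pseudocount, the minimum, the scaling, the trend, the replicate block and the libraries used. ESR1 averaged 4.53 ± 0.365 and 5.28 ± 0.113 scaled FPKM (vehicle, A7) and BRCA1 6.86 ± 0.0862 and 6.4 ± 0.562.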

Additional observations from a re-analysis of the deposited data

How the results depend on the processing

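In each of the 12 alternatives 0 of the genes tested there passed the threshold, that is, of 10 with no filter, 2 with a minimum of 5 FPKM, 5 without vehicle replicate 1 and 4 in the others. EGR3 was lower with A7 in 11 of 11 alternatives and EGR1 higher in 12 of 12, with adjusted p-values of 0.47 to 0.977 and 0.535 to 0.977. A minimum of 5 FPKM left EGR3 and IER2 out of the test. JUND turned from -0.08 to 0.14 with FPKM rescaled to TPM, where the median of all tested genes was 0.17 (JUND -0.04 relative to it), to 0.02 after quantile normalization and over the fits that left out 1 library ran from -0.22 to 0.05, positive without vehicle replicate 1. Over the same fits IER2 ran from -0.07 without A7 replicate 1 to 0.88. The median of the tested members, 0.1, was 0.27 with no filter, which brings in all 10. With TPM it was 0.31, or 0.13 relative to the median of all tested genes. It ran from -0.07 to 0.21 when 1 library was left out. The lowest was without A7 replicate 1. The highest, without vehicle replicate 1, includes JUNB, for 5 genes in all, and is 0.13 over the same 4.

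Over all genes, 1 higher and 1 lower became 0 and 0 with no filter and with the replicate block, 0 higher without the trend, 0 lower with a pseudocount of 0.1, 3 lower with a minimum of 5 FPKM and 2 lower with TPM or quantile normalization. Leaving out 1 library gave 0 to 10 higher and 0 to 7 lower, namely 0 and 0 when A7 replicate 1 was dropped, 10 and 3 for A7 replicate 2, 1 and 6 for vehicle replicate 1, then 2 and 7 for vehicle replicate 2. The cause was not tested. Replicate numbers are shared between the groups, but the deviations of same-numbered libraries correlated at only 0.0906 over genes, and no source states a pairing. With the replicate block EGR3 had an adjusted p of 0.47. The estimated depth limits FOS, FOSB, FOSL2, JUN, JUNB and ATF3, each with at most 25 fragments per group.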
